A study of Mus musculus with 6 samples.

Results

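Mitochondrial ribosomal proteins build the ribosome that works inside mitochondria. The genes were taken by symbol: Mrpl marks proteins named for the large subunit and Mrps those named for the small subunit, each followed by a digit, with hyphenated names left out. The rule found 78 of the 55291 genes in the deposited table, 49 named Mrpl and 29 named Mrps, and 77 of them passed the filter on low counts that left 15478 genes to test. Marrow flushed from femurs was profiled by RNA-seq in mice with P2rx7 knocked out (knockouts A, B and C) and in wild-type mice (WT 1, 2 and 3), all 6 to 8 weeks old; each genotype had 3 mice and each mouse gave 1 library. The P2rx7 protein is a cation channel opened by extracellular ATP, and by its title the study asks what this channel does for bone ageing and for the mitochondria of mesenchymal stromal cells. The labels name no strain or sex and do not describe the knockout allele or the cells in which it acts.

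The mitochondrial ribosome translates the few proteins that mitochondrial DNA encodes, all of them subunits of the respiratory chain or of ATP synthase. Its RNAs are transcribed in the mitochondrion, but its proteins are encoded in the nucleus, made in the cytosol and imported. Many have counterparts in bacterial ribosomes, from which the organelle's ribosome descends, and the others are specific to mitochondria. In bone marrow, respiration supports blood progenitors as they mature and stromal cells as they become bone-forming cells.

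The libraries held 18716704 to 23575652 counts. P2rx7 transcripts fell to 39.4, 38.4 and 37.5 CPM (counts scaled to library size with TMM factors) in knockouts A, B and C, against 60.5, 60.4 and 62.7 CPM in WT 1, 2 and 3 (log2 fold change -0.67 ± 0.05 SE, adjusted p = 0.0109, edgeR's quasi-likelihood test). Transcripts were not lost in the knockouts, and a total over the gene's exons cannot show a partial deletion. The call of P2rx7 was lost without knockout B (adjusted p = 0.0763, edgeR) and without knockout C (adjusted p = 0.0973, edgeR). The libraries also divided by counts of Gh and Alb. The growth hormone gene Gh was counted 23, 0 and 0 times in knockouts A, B and C, against 54, 82 and 75 in WT 1, 2 and 3. The albumin gene Alb was counted 0, 46 and 36 times in knockouts A, B and C, against 0 in every wild type. Where these counts came from was not tested. Of the 5 T cell markers, Cd3e, Cd3g, Cd3d and Cd8a had 0 to 2 counts in each library. The other, Cd4, was counted 127, 127 and 146 times in knockouts A, B and C, against 130, 239 and 249 in WT 1, 2 and 3 (log2 fold change -0.48 ± 0.19 SE, adjusted p = 0.273, edgeR). Of the 7 erythroid markers 1 passed the filter on low counts, and the list summed to 121 to 132 CPM in knockouts and 107 to 111 CPM in wild types. Of the 6 B cell precursor markers 1 passed it too, with list sums of 1.08 to 1.66 CPM in knockouts and 0.902 to 1.16 CPM in wild types. Most markers of T cells, red cells and B cell precursors thus missed the filter, although the sample titles name bone marrow. Which cells made up the libraries was not tested, and the levels given here cannot be read as those of whole marrow. The 5 monocyte and macrophage markers summed to 2773 to 3085 CPM in knockouts, against 2733 to 2847 CPM in wild types. Of the 5 plasma cell markers 3 were tested, with log2 fold changes of 0.05 to 3.75, and 1 had an adjusted p below 0.05 (0.014, edgeR). The 7 markers of cycling cells had 5 negative and 2 positive log2 fold changes, with a median of -0.13 and none with an adjusted p below 0.05 (edgeR).

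Transcript levels of the mitoribosomal genes were close in the genotypes, and none of the 77 passed the threshold in either direction (p adjusted over all tested genes by Benjamini-Hochberg, below 0.05, in edgeR's test). Over all tested genes 16 passed, or 0.103%, and DESeq2 called none of the 77 either. The level summed over the tested members was 1867, 1971 and 1956 CPM in knockouts A, B and C, against 1895, 1893 and 1875 CPM in WT 1, 2 and 3. In this sum knockouts B and C lay above all wild types, and knockout A lay below them by a small margin, so the groups overlapped. The means of the sum were 1931 ± 56.4 CPM in knockouts, against 1888 ± 11.3 CPM in wild types (SD, n = 3 each). In mean log2 CPM relative to the wild types, knockout A stood at -0.0075 and WT 3 lower, at -0.0133. In bulk RNA, fewer cells of a type and less RNA per cell cannot be told apart.

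The log2 fold change of knockout over wild type ran from -0.17 for Mrpl52 to 0.47 for Mrps6, and adjusted p-values ran from 0.215 to 0.993 (edgeR's quasi-likelihood test, two-sided). It was positive for 53 members and negative for 24, or 68.8% positive beside 51.2% of all tested genes. The median was 0.04 beside 0.00 over all tested genes. With knockout A alone set against the wild types, the median was -0.02 and 30 of 77 were positive. At an unadjusted p below 0.05 there were 3 members, Mrps6, Mrps14 and Mrps30, all with positive values, while 16.6% of all tested genes met the same limit. All knockouts lay above all wild types for 8 members, a share of 10.4%, beside 11.5% of all tested genes. All knockouts lay below all wild types for 2 members, a share of 2.60%, beside 10.4% of all tested genes. The first count is near its background, and the second and the count at an unadjusted p are below theirs.

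The intervals of most members were narrow. The median level in fragments per kilobase of summed exons (FPKM) was 8.16 over the members, beside 4.75 over all tested genes. Genes of like level were not compared, so the shares and spreads given here are not set apart from level. The 95% interval of the log2 fold change lay wholly within 0.5 of 0 on either side for 75 of the 77 members, or 97.4%, beside 65.2% of all tested genes. A log2 value of 0.5 is a 1.41-fold difference. Within 0.3, which is 1.23-fold, the share was 72.7% of members and 44.1% of all tested genes. The members whose intervals reached past 0.5 were Mrps6, at 0.11 to 0.82, and Mrps18c, at -0.10 to 0.52. The median standard error was 0.07 on the log2 scale. Replicates of 1 genotype varied with a median coefficient of variation of 4.54% in knockouts and 5.50% in wild types over the members, beside 6.67% and 7.87% over all tested genes in knockouts and wild types.

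**Figure D1:**
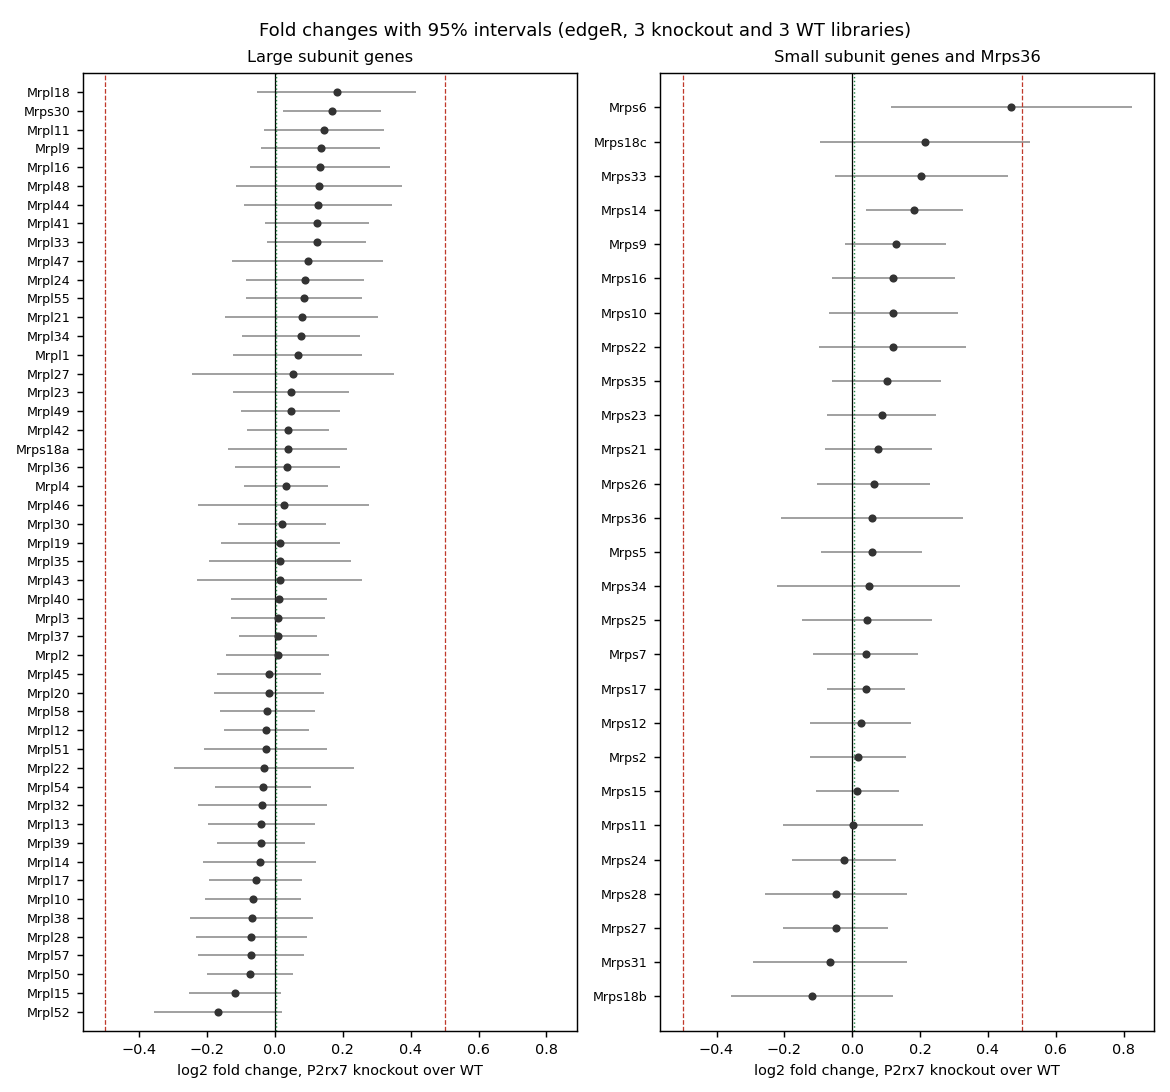
Log2 fold changes of P2rx7 knockout over WT (x axis) for the 77 tested mitoribosomal genes, with large subunit genes on the left and small subunit genes with Mrps36 on the right; points are edgeR estimates, bars are 95% intervals, dashed lines stand at -0.5 and 0.5, and the dotted line is the median of all tested genes. The intervals of 75 genes stay between the dashed lines, and Mrps6 has the highest value, 0.47.

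Levels per length spanned a wide range among proteins that the assembled ribosome holds mostly as single copies. Mean FPKM (fragments per kilobase of summed exons and depth-scaled) over the 6 libraries ran from 1.64 to 45.8, a ratio of 27.9, with a median of 8.16. On the CPM scale, which does not divide by length, the same genes ran from 6.05 to 49.6, a ratio of 8.21. Mrpl54, which encodes a mitochondria-specific large subunit protein, had the highest FPKM: 43.6, 45.7 and 45.9 in knockouts A, B and C, against 43.2, 48.9 and 47.2 in WT 1, 2 and 3. Mrpl34, whose protein has a bacterial counterpart, came next at 43.4, 45.6 and 41.5 FPKM in knockouts A, B and C, against 38.9, 45.5 and 40.03 in WT 1, 2 and 3. The groups overlapped for both genes, and their ranges overlapped each other, so the order of these neighbours does not hold beyond their spread.

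Mrps21, Mrpl52, Mrps6 and Mrps15 followed, with FPKM of 36.9 ± 1.75, 33.3 ± 0.968, 37.1 ± 3.16 and 29.3 ± 1.14 in knockouts, in that order of genes, against 35.2 ± 1.81, 37.6 ± 4.39, 26.9 ± 5.91 and 29.2 ± 0.776 in wild types (SD, n = 3). Mrps21 and Mrps15 encode small subunit proteins with bacterial counterparts. At the low end, Mrps35 had 1.69 ± 0.0400 FPKM in knockouts, against 1.59 ± 0.0490 FPKM in wild types (SD, n = 3). Mrpl48 had 1.77 ± 0.103 FPKM in knockouts, against 1.62 ± 0.194 FPKM in wild types. Mrps10 had 2.21 ± 0.0726 FPKM in knockouts, against 2.04 ± 0.201 FPKM in wild types, and Mrpl47 had 2.37 ± 0.2001 FPKM in knockouts, against 2.22 ± 0.115 FPKM in wild types. The distance between the top and the bottom of this order was far larger than the spread between libraries at any member.

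FPKM divides by gene length, and that division by itself shapes the order. Across the 77 members, which share libraries and are not independent, mean FPKM was lower in genes of greater summed exon length (Spearman's rho -0.80), while CPM showed little relation to it (rho 0.08). With CPM unrelated to length, dividing by length makes a negative rho, so the value of -0.80 is no evidence on transcript abundance. The deposited length counts every exon base of every transcript and ran from 607 to 8631 bases among the tested members, whereas the main transcript in GENCODE vM21 ran from 418 to 7300 bases. Dividing CPM by the main transcript's length gave values with a rho of -0.76 to that length, for the same reason. Their order was related to that of FPKM (rho 0.76), which rests on the same counts, but was not the same. Mrpl33, which encodes a short large subunit protein with a bacterial counterpart, was at rank 73 of 77 by FPKM and at rank 8 by main transcript. Mrpl52 was at rank 4 by FPKM and at rank 1 by main transcript, and Mrpl54 at ranks 1 and 2. Log2 fold changes were little related to length (rho 0.08) or to FPKM (rho -0.25).

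**Figure D2:**
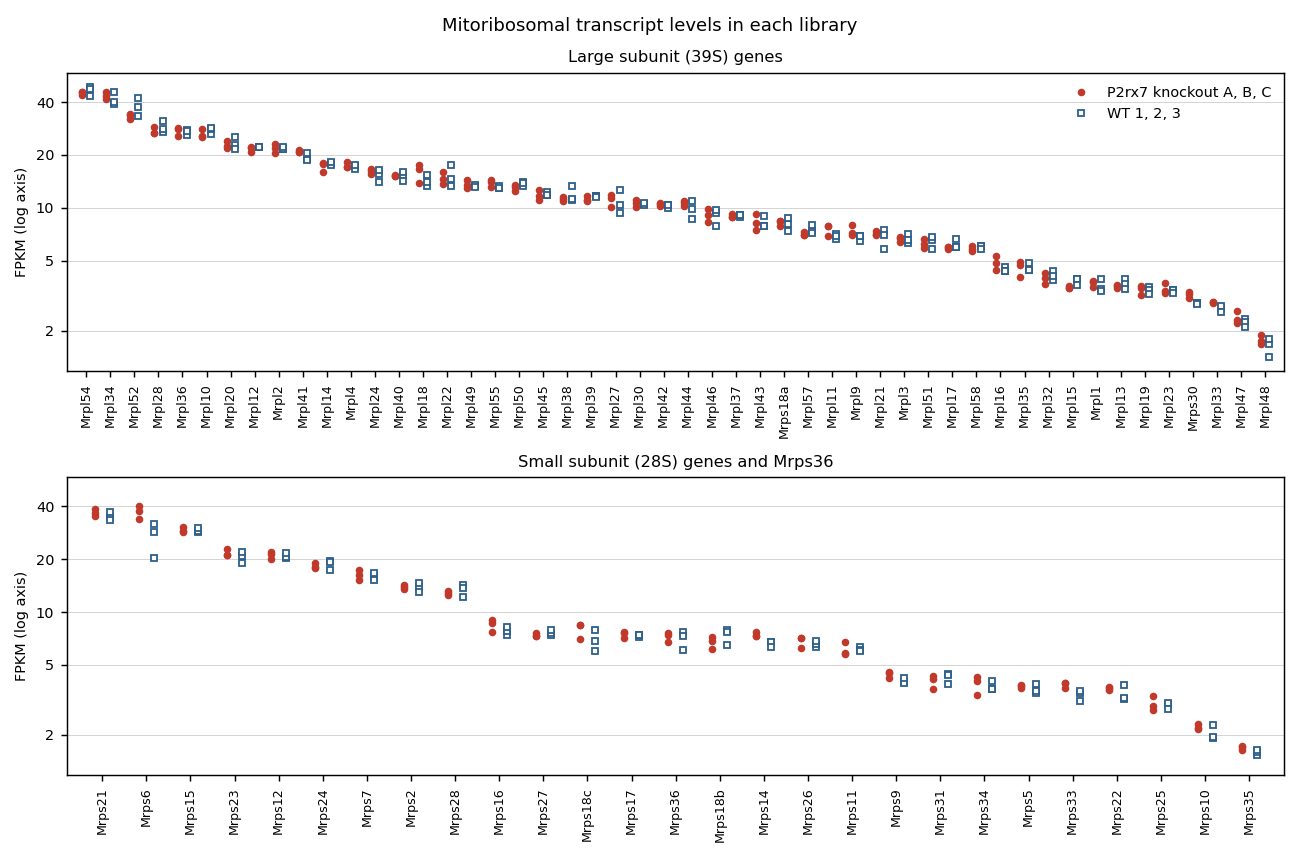
FPKM on a log axis (y axis) of each of the 77 tested mitoribosomal genes (x axis, ordered by mean level), with large subunit genes above and small subunit genes with Mrps36 underneath; filled circles are knockouts A, B and C and open squares are WT 1, 2 and 3. Levels run from Mrpl54, at a mean of 45.8, down to Mrps35, at a mean of 1.64, and the symbols of the genotypes overlap at most genes.

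The large subunit joins amino acids into protein. Its 50 tested genes summed to 1255, 1321 and 1310 CPM in knockouts A, B and C, against 1288, 1298 and 1277 CPM in WT 1, 2 and 3. Knockout A was below all wild types and knockouts B and C above them. Proteins with bacterial counterparts accounted for 29 of these genes, 19 of them with positive log2 fold changes and a median of 0.02. Mitochondria-specific proteins accounted for 20, counting Mrps30 and Mrps18a, which carry small subunit names but belong to the large subunit in structures of the mammalian ribosome. Of these 20 genes 11 had positive values, and their median was 0.01. Mrpl55 was counted with the large subunit and in neither of these groups.

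Mrps30 had the lowest p of the large subunit. It lies on chromosome 13 at 118378381 to 118387252 on the minus strand (GRCm38) and had 20.5, 21.6 and 22.1 CPM in knockouts A, B and C, against 19.3, 18.9 and 18.9 CPM in WT 1, 2 and 3. All knockouts were above all wild types, and the log2 fold change was 0.17 ± 0.06 (SE, adjusted p = 0.245, edgeR). Mrpl18, whose bacterial counterpart binds the small ribosomal RNA of the large subunit, had the highest fold change there, at 19.4, 23.5 and 24.7 CPM in knockouts A, B and C, against 18.6, 21.3 and 19.5 CPM in WT 1, 2 and 3. The groups overlapped through knockout A (log2 fold change 0.18 ± 0.10 SE, adjusted p = 0.409, edgeR), and the value was -0.04 when knockout A alone was set against the wild types. Mrpl18 shares 141 exon bases with the chaperonin gene Tcp1 on the opposite strand, which had 26048 counts over all libraries against 2686 for Mrpl18. Without the strand of counting, which is not given in the sources used here, reads from such a pair cannot be told apart.

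The lowest log2 fold change also stood in the large subunit. Mrpl52, which encodes a mitochondria-specific protein, lies on chromosome 14 at 54426909 to 54429756 (plus strand) and had 37.2, 36.1 and 38.0 CPM in knockouts A, B and C, against 37.2, 46.4 and 41.4 CPM in WT 1, 2 and 3. WT 2 was highest, and WT 1 lay among the knockouts (log2 fold change -0.17 ± 0.08 SE, adjusted p = 0.348, edgeR). The next lowest was that of the small subunit gene Mrps18b, at -0.12, close to Mrpl15. Mrpl15, a protein with a bacterial counterpart, lies on chromosome 1 at 4773206 to 4785739 (minus strand) and had 29.5, 30.9 and 29.7 CPM in knockouts A, B and C, against 33.8, 33.0 and 31.0 CPM in WT 1, 2 and 3. All knockouts were below all wild types by a small margin at knockout B and WT 3 (log2 fold change -0.12 ± 0.06 SE, adjusted p = 0.355, edgeR). Mrpl50 was the other member with all knockouts below, at 28.2, 28.1 and 26.7 CPM in knockouts A, B and C, against 28.5, 29.5 and 29.3 CPM in WT 1, 2 and 3. Mrpl57 and Mrpl28 had overlapping groups and log2 fold changes of -0.07 each.

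Large subunit members with a further known role also showed small differences. Mrpl12, whose bacterial counterpart forms the stalk that recruits translation factors and which also binds the mitochondrial RNA polymerase, averaged 33.3 ± 1.31 CPM in knockouts, against 33.9 ± 0.269 CPM in wild types (SD, n = 3). Mrpl58, a peptidyl-tRNA hydrolase that frees stalled ribosomes, averaged 19.6 ± 0.541 CPM in knockouts, against 19.9 ± 0.408 CPM in wild types. Mrpl44, with a fold like that of ribonuclease III, averaged 17.5 ± 0.556 CPM in knockouts, against 16.1 ± 1.90 CPM in wild types, and Mrpl36 averaged 32.1 ± 2.02 CPM in knockouts, against 31.3 ± 1.31 CPM in wild types. The groups overlapped for all of these genes, with adjusted p-values of 0.538 to 0.889. Mrpl41, Mrpl9 and Mrpl33 had all knockouts above all wild types, with log2 fold changes of 0.12, 0.13 and 0.12 and adjusted p-values of 0.390, 0.415 and 0.373 (edgeR).

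Mrpl53 was the member left out by the filter. It was counted 1, 1 and 0 times in knockouts A, B and C, against 0, 4 and 1 in WT 1, 2 and 3. The gene lies on chromosome 6 at 83109040 to 83109939, and 695 of its 790 exon bases are shared on the same strand with the predicted gene Gm42688, which was counted 33, 21 and 22 times in knockouts A, B and C, against 26, 22 and 29 in WT 1, 2 and 3. How the authors' counting treated reads on shared exons is not given in the sources used here, so its count is uncertain.

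The small subunit binds messenger RNA and reads its codons. Its 26 genes summed to 602, 641 and 636 CPM in knockouts A, B and C, against 598, 587 and 588 CPM in WT 1, 2 and 3, so that all knockouts stood above all wild types, knockout A by a small margin. Mrps6 took part in that separation: without it, a choice made after seeing the data, the sums of the other 25 genes were 551, 579 and 578 CPM in knockouts A, B and C, against 549, 556 and 544 CPM in WT 1, 2 and 3, and knockout A lay among the wild types. Log2 fold changes were positive for 21 of 26 genes (80.8%), beside 51.2% of all tested genes. The median of the 26 was 0.05, and none passed the threshold. Genes that share libraries are not independent, so such counts of signs are descriptions. Proteins with bacterial counterparts made up 15 of these genes, 14 of them positive, with a median of 0.06. Mitochondria-specific proteins made up 11, with 7 positive and a median of 0.05.

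Mrps6, which encodes the counterpart of a bacterial protein at the edge of the small subunit, had the highest fold change of all members. It lies on chromosome 16 at 92058270 to 92112227 (plus strand) and had 51.5, 62.0 and 57.8 CPM in knockouts A, B and C, against 49.0, 30.9 and 43.9 CPM in WT 1, 2 and 3. All knockouts were above all wild types, WT 1 came within reach of knockout A, and WT 2 was lowest by far. The log2 fold change was 0.47 ± 0.15 (SE, adjusted p = 0.215, edgeR). Without WT 2 it was 0.30 (adjusted p = 0.254, edgeR), and with knockout A alone against the wild types it was 0.32 (adjusted p = 0.969, edgeR). In the fit on all genes with a count Mrps6 passed the threshold, at 0.46 (adjusted p = 0.0141, edgeR), and its adjusted p over the alternatives ranged from 0.0141 to 0.969.

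WT 2 was also the lowest library for some genes outside the ribosome. Slc5a3, a myo-inositol transporter gene that shares 159 exon bases with Mrps6 on the same strand, had 104, 124 and 114 CPM in knockouts A, B and C, against 105, 65.2 and 88.5 CPM in WT 1, 2 and 3 (log2 fold change 0.41 ± 0.15 SE, adjusted p = 0.252, edgeR). Its 12589 counts over all libraries exceed the 6183 of Mrps6, and how reads on the shared bases were divided is not known. The stromal, osteoblast and adipocyte marker lists had WT 2 lowest too, whereas the endothelial list had knockout A lowest and the skeletal muscle list had WT 2 highest. The 5 stromal markers summed to 4814, 5754 and 5609 CPM in knockouts A, B and C, against 3410, 1876 and 3913 CPM in WT 1, 2 and 3, with Cxcl12, the niche chemokine of marrow stroma, at 4021, 4897 and 4702 CPM in knockouts, against 2696, 1327 and 3168 CPM in wild types. The 5 adipocyte markers summed to 1279, 1361 and 1069 CPM in knockouts A, B and C, against 826, 358 and 704 CPM in WT 1, 2 and 3. The 5 neutrophil precursor markers, which set knockouts B and C and WT 3 apart, summed to 83.2, 494 and 380 CPM in knockouts A, B and C, against 62.1, 29.5 and 203 CPM in WT 1, 2 and 3. The 6 mature neutrophil markers summed to 27.1, 114 and 116 CPM in knockouts A, B and C. In WT 1, 2 and 3 they summed to 187, 89.6 and 186 CPM. All 5 precursor markers had positive log2 fold changes and all 5 tested mature markers negative ones, none past the threshold. The part of these cells in the values of Mrps6 was not tested.

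**Figure D3:**
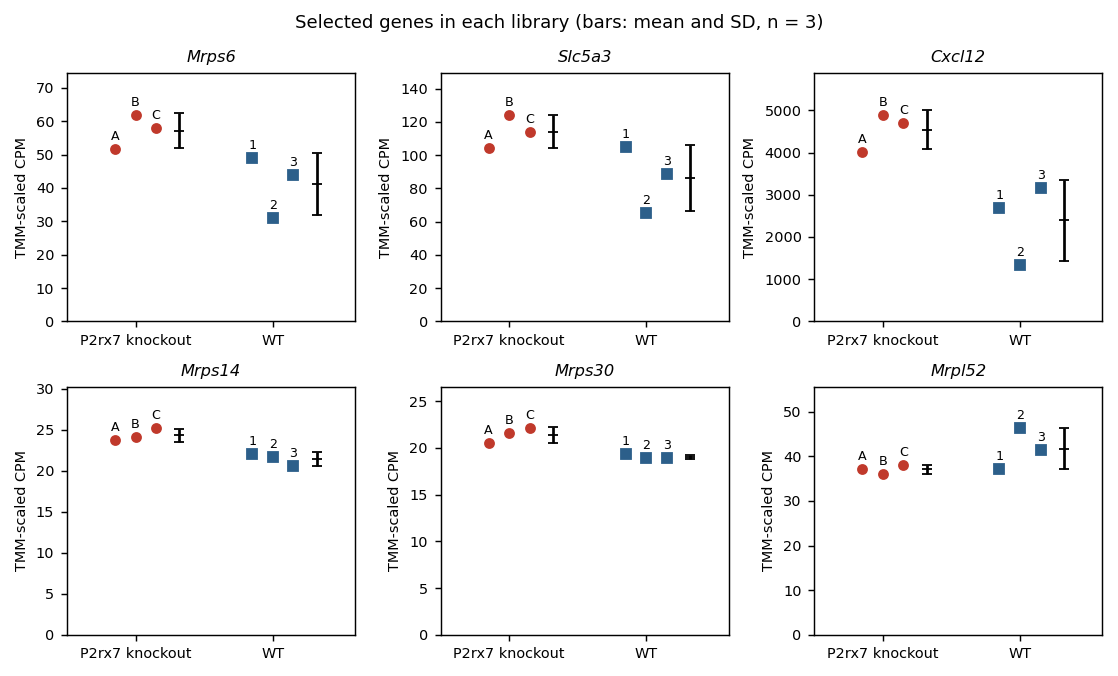
TMM-scaled CPM (y axes, from 0) of Mrps6, its overlapping neighbour Slc5a3, the stromal marker Cxcl12, and Mrps14, Mrps30 and Mrpl52 in knockouts A, B and C (circles) and WT 1, 2 and 3 (squares), with bars for the mean and SD of each genotype (n = 3). WT 2 is the lowest library for Mrps6, Slc5a3 and Cxcl12 and the highest for Mrpl52.

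Mrps14, another protein with a bacterial counterpart, lies on chromosome 1 at 160195215 to 160202170 (plus strand) and had 23.7, 24.1 and 25.2 CPM in knockouts A, B and C, against 22.1, 21.7 and 20.5 CPM in WT 1, 2 and 3. Its groups did not overlap and its replicates were close to each other, and the log2 fold change was 0.18 ± 0.06 (SE), with adjusted p = 0.221 in edgeR. Mrps14 shares no exon bases with another gene in the deposited table. Mrps33 and Mrps35, both mitochondria-specific, also had all knockouts above all wild types, with log2 fold changes of 0.20 and 0.10 and adjusted p-values of 0.397 and 0.503 (edgeR). Mrps33 was the small subunit gene of lowest CPM, at 6.47 ± 0.219 in knockouts and 5.62 ± 0.417 in wild types (SD, n = 3).

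The Mrps18 paralogues are related copies of a bacterial small subunit protein that took different places in the mitochondrial ribosome. Mrps18c, the copy at the bacterial site of the small subunit, had 7.51, 9.19 and 9.18 CPM in knockouts A, B and C, against 7.37, 8.44 and 6.47 CPM in WT 1, 2 and 3. Mrps18b, a copy elsewhere on the small subunit, had 14.3, 12.9 and 15.3 CPM in knockouts A, B and C, against 16.7, 15.9 and 13.5 CPM in WT 1, 2 and 3. Mrps18a, the copy in the large subunit, averaged 30.5 ± 1.27 CPM in knockouts, against 29.8 ± 2.60 CPM in wild types (SD, n = 3). Groups overlapped at all of the copies, and the log2 fold changes were 0.21, -0.12 and 0.04 for Mrps18c, Mrps18b and Mrps18a, with adjusted p-values of 0.462, 0.603 and 0.849 (edgeR). Differences between the fold changes of the copies were not tested.

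Other small subunit genes of known role gave similar pictures. Mrps12, part of the decoding centre, averaged 22.1 ± 0.972 CPM in knockouts, against 21.7 ± 0.816 CPM in wild types (SD, n = 3; log2 fold change 0.02). Mrps34, a mitochondria-specific protein needed for a stable small subunit, averaged 8.06 ± 0.978 CPM in knockouts, against 7.78 ± 0.471 CPM in wild types, and shares 1309 of its 2064 exon bases with Mapk8ip3 on the opposite strand, a gene of 10647 counts. Mrps36, which bears a small subunit name but is now known as a subunit of the 2-oxoglutarate dehydrogenase complex, averaged 9.29 ± 0.545 CPM in knockouts, against 8.94 ± 1.14 CPM in wild types (log2 fold change 0.06 ± 0.12 SE, adjusted p = 0.845, edgeR). It was counted in neither subunit.

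The mitoribosomal genes are spread over 17 chromosomes, with 11 on chromosome 11 and 8 on chromosome 17, and many start close to a gene on the opposite strand. Within 1 kb of its own start, 34 of the 77 tested members (44.2%) had the start of another tested gene on the opposite strand, beside 16.8% of all tested genes. Some of these partners also serve mitochondria: Mrps12 starts 172 bases from Sars2, the mitochondrial seryl-tRNA synthetase gene, Mrpl36 starts 29 bases from Ndufs6 and Mrpl47 starts 615 bases from Ndufb5, both genes of respiratory complex I, and Mrpl43 starts 779 bases from Twnk, which encodes the helicase of mitochondrial DNA. Mrpl46 and Mrps11 are partners of each other at 412 bases. Starts here are the outermost exon edges in the deposited annotation, so partners can overlap: Mrpl46 and Mrps11 share 173 exon bases, and Mrpl43 and Twnk share 507. RefSeq starts can differ from these. The deposited start of Mrpl46 is 78783531, and its RefSeq promoter spans 78783040 to 78783339. For Mrpl36 the deposited start is 73328513, and the RefSeq promoter spans 73330759 to 73331058, more than 1 kb away. The 29 bases between Mrpl36 and Ndufs6 thus hold for the deposited start and not for the RefSeq start. Members and partners had their own levels: Mrps12 stood at 21.0 FPKM and Sars2 at 3.45 FPKM over all libraries, whereas Mrpl36 and Ndufs6 stood at 27.3 and 26.7 FPKM. Log2 fold changes of these partners, at 0.09 for Sars2, 0.01 for Ndufs6, 0.10 for Ndufb5 and 0.12 for Twnk, did not pass the threshold either (adjusted p of 0.571 to 0.968, edgeR).

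RefSeq promoters of build GRCm38.p6, each 250 bases before to 50 after the start, were matched for 69 of the 78 members and were searched on both strands for short motifs. Mrpl4, Mrpl13, Mrpl15, Mrpl19, Mrpl38, Mrpl54, Mrps28, Mrps34 and Mrps35 had no entry. Factors of the ETS family, such as GABP, bind CCGGAAG and are known regulators of genes for mitochondrial proteins, as are NRF1, searched as GCATGCGC, and YY1, searched as AAGATGGC. The ETS motif was in 26 of the 69 promoters (37.7%), beside 19.03% of 11001 tested genes with a promoter, the NRF1 motif in 8 (11.6%), beside 5.60%, and the YY1 motif in 12 (17.4%), beside 5.07%. At least 1 of these motifs was in 38 promoters (55.1%), beside 27.0%. TATAAA was in 7.25% of member promoters, beside 8.96%, and CCAAT in 39.1%, beside 42.6%. The tested genes are themselves richer in these motifs than the 27025 genes with any promoter entry, of which 9.93% held the ETS motif. Median log2 fold changes of tested members with and without a motif were 0.05 and 0.04 for ETS, -0.04 and 0.04 for NRF1, and 0.02 and 0.06 for YY1, with 25, 8 and 12 members holding them. These are matches of letters and not binding sites.

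**Figure D4:**
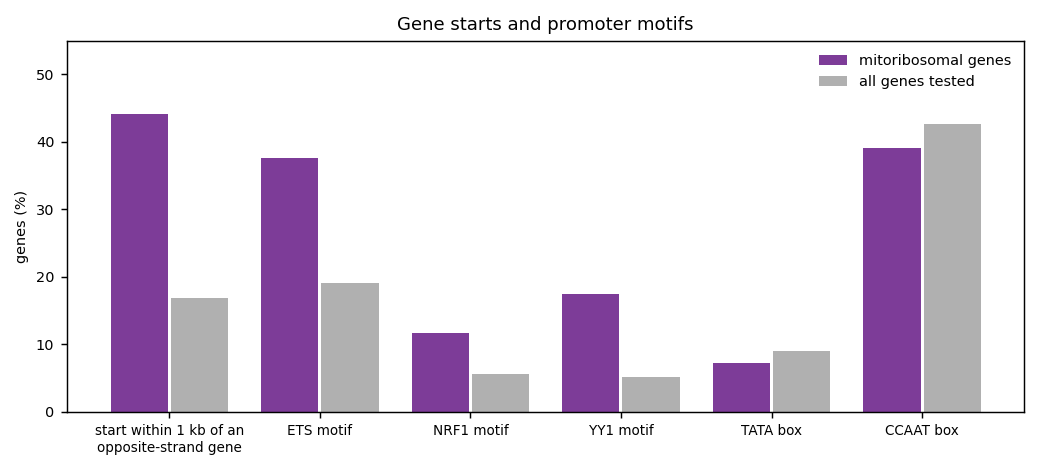
Share of genes in percent (y axis) for which a tested gene on the opposite strand starts within 1 kb, or whose RefSeq promoter holds the named motif; left bars are mitoribosomal genes (77 for gene starts, 69 for motifs) and right bars are all tested genes (15478 for gene starts, 11001 for motifs). Mitoribosomal genes have the higher bar for gene starts, at 44.2% beside 16.8%, and for the ETS, NRF1 and YY1 motifs, and the TATA and CCAAT motifs have bars of near equal height.

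The promoters of 5 members are shown 5′ to 3′ on the strand of the gene, in the order of the lowest fold change, pairs of facing genes, and the highest fold change. Capitals mark CCGGAAG or its reverse complement CTTCCGG, and AAGATGGC or its reverse complement GCCATCTT. Mrpl52 (chr14:54426659-54426958, plus strand) holds the ETS motif at 2 places, as does Mrpl43 (chr19:45006393-45006692, minus strand), which faces Twnk. Mrps12 (chr7:28741772-28742071, minus strand), which faces Sars2, holds 1 ETS and 1 YY1 motif. Mrps11 (chr7:78782881-78783180, plus strand), which faces Mrpl46, holds 1 YY1 motif, and Mrps6 (chr16:92058086-92058385, plus strand) holds none of the motifs.
Mrpl52: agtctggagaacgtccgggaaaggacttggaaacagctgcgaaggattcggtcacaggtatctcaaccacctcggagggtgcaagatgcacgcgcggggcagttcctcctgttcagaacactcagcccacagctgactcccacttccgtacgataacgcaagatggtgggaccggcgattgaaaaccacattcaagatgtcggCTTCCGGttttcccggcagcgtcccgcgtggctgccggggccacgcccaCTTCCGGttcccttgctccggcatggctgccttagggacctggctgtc
Mrpl43: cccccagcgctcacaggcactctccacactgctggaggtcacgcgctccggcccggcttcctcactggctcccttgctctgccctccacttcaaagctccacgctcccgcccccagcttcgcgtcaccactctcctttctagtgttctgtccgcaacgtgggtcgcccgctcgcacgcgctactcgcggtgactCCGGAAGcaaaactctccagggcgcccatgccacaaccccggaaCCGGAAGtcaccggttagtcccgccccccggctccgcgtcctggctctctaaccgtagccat
Mrps12: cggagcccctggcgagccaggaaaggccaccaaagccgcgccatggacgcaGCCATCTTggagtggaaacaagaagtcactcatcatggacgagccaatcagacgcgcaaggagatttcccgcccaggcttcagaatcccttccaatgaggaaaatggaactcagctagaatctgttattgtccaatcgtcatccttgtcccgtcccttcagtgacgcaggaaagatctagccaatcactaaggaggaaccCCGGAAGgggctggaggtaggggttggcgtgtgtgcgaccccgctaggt
Mrps11: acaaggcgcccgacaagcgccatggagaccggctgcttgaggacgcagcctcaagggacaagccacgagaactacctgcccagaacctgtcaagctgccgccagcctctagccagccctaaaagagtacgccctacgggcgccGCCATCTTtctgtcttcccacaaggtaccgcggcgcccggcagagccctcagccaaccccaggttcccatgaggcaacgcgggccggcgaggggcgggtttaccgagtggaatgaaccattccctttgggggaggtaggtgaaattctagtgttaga
Mrps6: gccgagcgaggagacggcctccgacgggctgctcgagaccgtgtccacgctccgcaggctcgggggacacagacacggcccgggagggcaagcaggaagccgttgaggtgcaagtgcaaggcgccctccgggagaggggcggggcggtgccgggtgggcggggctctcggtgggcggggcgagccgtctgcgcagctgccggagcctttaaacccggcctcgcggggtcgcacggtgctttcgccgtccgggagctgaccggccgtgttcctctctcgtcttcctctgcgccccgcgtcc
Among these 5 genes the log2 fold changes of Mrpl43, Mrps12 and Mrps11 were 0.01, 0.02 and 0.00, and those of Mrpl52 and Mrps6 were -0.17 and 0.47, none past the threshold.

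Of the 78 members, 32 share exon bases with another gene in the deposited annotation, 27 of them on the opposite strand and 8 on the same strand. For 18 members the other gene had at least 1000 counts over all libraries. The 46 members with no shared exon bases had a median log2 fold change of 0.02, with 30 positive, and the 31 tested members with shared bases a median of 0.04, with 23 positive. None passed the threshold in either set.

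In edgeR's test the other genes of mitochondrial translation gave 0 calls as well, with counts at an unadjusted p below 0.05 given per list. Over all tested genes 0.103% passed, 16.6% had an unadjusted p below 0.05, and 51.2% had positive log2 fold changes. All knockouts lay above all wild types for 11.5% of tested genes and below them for 10.4%. Of mitoribosomal proteins known under other names, all 5 tested had positive log2 fold changes of 0.02 to 0.13, and 0 had an unadjusted p below 0.05. The highest level among them was that of Aurkaip1, at 30.7 ± 1.62 FPKM in knockouts, against 29.1 ± 0.275 FPKM in wild types (SD, n = 3), followed by Chchd1 at 22.2 ± 1.92 FPKM in knockouts, against 21.1 ± 0.968 FPKM in wild types. Factors that assemble the ribosome or modify its RNA had 17 of 26 positive values and a median of 0.05, and 3 had an unadjusted p below 0.05. Mpv17l2 and the protease subunit gene Spg7 had the highest levels there, with log2 fold changes of 0.05 and -0.04 (adjusted p = 0.827 and 0.730, edgeR). Rpusd4, a pseudouridine synthase of mitochondrial ribosomal RNA, had the lowest adjusted p of these lists apart from the respiratory chain and the mitochondrially encoded genes, at 15.6, 15.1 and 16.5 CPM in knockouts A, B and C, against 13.5, 12.1 and 13.1 CPM in WT 1, 2 and 3 (log2 fold change 0.29 ± 0.08 SE, adjusted p = 0.166, edgeR). All knockouts were above all wild types for Rpusd4.

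Translation factors had 12 of 17 positive values, a median of 0.03 and 0 genes with an unadjusted p below 0.05, and Pdf, the peptide deformylase gene, did not pass the filter. C1qbp averaged 21.2 ± 2.01 FPKM in knockouts, against 22.3 ± 2.17 FPKM in wild types, and Oxa1l, which inserts new proteins into the inner membrane, 15.7 ± 0.672 FPKM in knockouts, against 14.7 ± 0.614 FPKM in wild types (SD, n = 3). Aminoacyl-tRNA synthetases with subunits of the glutamyl-tRNA amidotransferase had 13 of 20 positive values and a median of 0.04, with 1 gene at an unadjusted p below 0.05. Gatc and Rars2 had the highest levels, with log2 fold changes of 0.01 and 0.02 (adjusted p = 0.955 and 0.908, edgeR). The subunit gene Gatb was highest in fold change, at 38.8, 37.3 and 35.7 CPM in knockouts A, B and C, against 33.0, 19.6 and 27.3 CPM in WT 1, 2 and 3, with WT 2 lowest (log2 fold change 0.49 ± 0.16 SE, adjusted p = 0.216, edgeR). It passed in the fit on all genes with a count.

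Nuclear-encoded subunits of the respiratory chain and ATP synthase had 57 of 74 positive values and a median of 0.05, with 5 genes at an unadjusted p below 0.05, all positive. They summed to 5335, 5663 and 5639 CPM in knockouts A, B and C, against 5443, 5398 and 5441 CPM in WT 1, 2 and 3. Knockout A lay below all wild types in this sum too. In mean log2 CPM relative to the wild types, knockout A stood at -0.01, between WT 2 at -0.02 and WT 3 at 0.01. Cox8a and Cox6a1, both of cytochrome c oxidase, had the highest levels, at 265 ± 15.6 and 246 ± 11.5 FPKM in knockouts, against 259 ± 3.78 and 249 ± 5.30 FPKM in wild types (SD, n = 3). Sdhd, a membrane anchor of respiratory complex II, had 71.0, 74.7 and 72.8 CPM in knockouts A, B and C, against 65.9, 62.0 and 63.1 CPM in WT 1, 2 and 3, and all knockouts were above all wild types (log2 fold change 0.19 ± 0.05 SE, adjusted p = 0.159, edgeR).

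Most messages that the mitochondrial ribosome translates had negative values. Of the 13 mitochondrially encoded protein genes, 12 had negative log2 fold changes, with a median of -0.10. None passed the threshold in edgeR's test, and 2 had an unadjusted p below 0.05, a share near the 16.6% of all tested genes. All knockouts lay below all wild types for 6 of the 13, a larger share than the 10.4% of all tested genes. They lay above all wild types for 1, beside 11.5% of all tested genes. Genes that share libraries are not independent. The summed level of the 13 genes was 21475, 21449 and 19954 CPM in knockouts A, B and C, against 21686, 22073 and 22812 CPM in WT 1, 2 and 3. All knockouts were below all wild types, by a small margin between knockout A and WT 1. The most abundant, mt-Co1 of cytochrome c oxidase, had 6607, 6539 and 6393 CPM in knockouts A, B and C, against 6808, 6796 and 6879 CPM in WT 1, 2 and 3 (log2 fold change -0.07 ± 0.08 SE, adjusted p = 0.696, edgeR). The next, mt-Cytb of complex III, had a log2 fold change of -0.09 (adjusted p = 0.566, edgeR). The lowest adjusted p was that of mt-Co3, another subunit of cytochrome c oxidase, at 14.3, 14.7 and 12.2 CPM in knockouts A, B and C, against 20.9, 20.9 and 15.9 CPM in WT 1, 2 and 3 (log2 fold change -0.49 ± 0.13 SE, adjusted p = 0.161, edgeR). WT 3 was nearest to the knockouts, and mt-Co3 passed the threshold with DESeq2, without WT 3 and in the fit on all genes with a count. Such low counts beside mt-Co1 are uncertain, because the nuclear genome holds near-identical copies of parts of mitochondrial DNA and the treatment of shared reads is not given in the sources used here. For ribosomal RNAs mt-Rnr1 and mt-Rnr2, log2 fold changes were -0.05 and -0.13 (adjusted p = 0.689 and 0.314, edgeR).

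Regulators of mitochondrial gene expression had 3 of 12 positive values and a median of -0.03. At an unadjusted p below 0.05 there were 2 genes, Gabpa and Pprc1, a share near the 16.6% of all tested genes. Yy1 and Myc had the highest levels among them, with Yy1 at 18.98 ± 0.165 FPKM in knockouts, against 19.8 ± 0.166 FPKM in wild types and Myc at 24.5 ± 0.737 FPKM in knockouts, against 26.2 ± 3.23 FPKM in wild types (SD, n = 3). Gabpa, the DNA-binding subunit of GABP, had 68.0, 64.5 and 68.2 CPM in knockouts A, B and C, against 72.4, 74.5 and 71.7 CPM in WT 1, 2 and 3. Its groups did not overlap (log2 fold change -0.12 ± 0.05 SE, adjusted p = 0.249, edgeR). Pprc1, a coactivator related to PGC-1, had 71.5, 64.5 and 64.8 CPM in knockouts A, B and C, against 74.6, 87.2 and 73.4 CPM in WT 1, 2 and 3, and the groups did not overlap (log2 fold change -0.23 ± 0.08 SE, adjusted p = 0.221, edgeR). Nrf1 had a log2 fold change of -0.03 and Tfam, which packages mitochondrial DNA, one of 0.04.

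**Figure D5:**
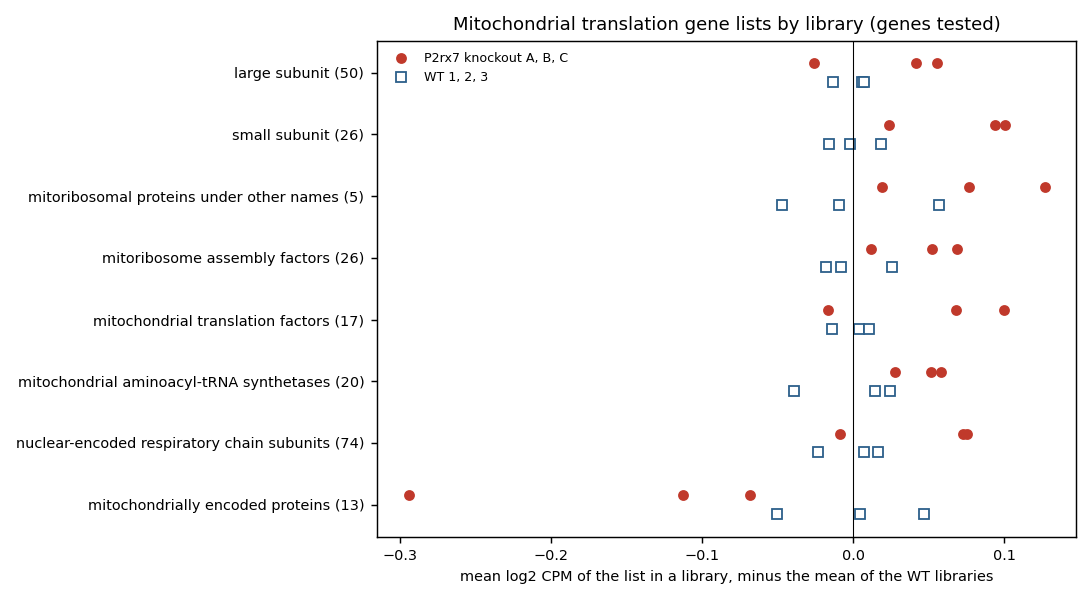
Mean log2 CPM of the tested genes of each list in each library, less the mean of the WT libraries (x axis), for knockouts A, B and C (circles) and WT 1, 2 and 3 (squares); the number of genes stands in brackets. Knockout A lies below all wild types for the large subunit, at -0.03 on this scale, and all knockouts lie below all wild types for the mitochondrially encoded proteins.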

How the data were processed

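Libraries were made from total RNA with a SMARTer mRNA kit, per the labels' protocols. The authors deposited 1 table with raw counts per gene symbol, FPKM values and summed exon lengths. The submitters' processing notes name the builds GRCm38 and mm10, while the aligner, counter, annotation and strand setting are not given in the sources used. The deposited FPKM equals the count over length and effective depth (100% of values above 0, within 1e-06 in relative terms). Spans and exon lengths of all 78 members equal those of GENCODE vM21.

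Counts were tested with edgeR 4.0.16 (R 4.3.3; filterByExpr, TMM, glmQLFit, glmQLFTest), knockout over wild type, two-sided, with Benjamini-Hochberg adjustment over all 15478 tested genes and a threshold of 0.05. No covariate was used: wild types are numbered and knockouts lettered, so the labels pair no samples. The standard error is the one implied by the test. The script was tested on simulated data. Whether the libraries of a genotype come from separate litters is not stated. Intervals of fold changes cover the spread between these mice alone. A list's score is its mean log2 CPM (prior count 2).

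The members and gene lists were chosen with earlier results of these data known. Named in full were P2rx7, members past the threshold, the 6 highest and 4 lowest by FPKM, the 6 highest and 6 lowest by fold change, the Mrps18 paralogues and members of special role, with the 2 highest of each pathway list; Rpusd4, Gatb, Sdhd, mt-Co3, Gabpa, Pprc1, Nrf1, Tfam and the partner genes were named after their values were seen. Alternatives, 17 in all, covered the scaling, the filter, DESeq2 1.42.0, robust edgeR, limma 3.58.1 on log2(FPKM + 1) and log2(FPKM + 0.1), members without shared exons, each library left out, and the wild types with knockout A alone.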

Additional observations from a re-analysis of the deposited data

How the results depend on the processing

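Under the 17 alternatives no mitoribosomal gene passed the threshold except in the fit on all genes with a count, where 1 did: Mrps6, at 0.46 (adjusted p = 0.0141). The range of its adjusted p over the alternatives was 0.0141 to 0.969, and it was 0.0531 with DESeq2. Over all genes, 16 were called, against 970 with all genes with a count, 8 with a mean CPM of at least 1, 496 with DESeq2, 10 and 2 with limma on log2(FPKM + 1) and log2(FPKM + 0.1), 0 with the wild types and knockout A alone (668 at an unadjusted p below 0.05), and 0 to 172 when a library was left out. The 0 came without knockout B (1468 at an unadjusted p below 0.05) and without knockout C (1772), 8 without knockout A, 5 without WT 1, 45 without WT 2 and 172 without WT 3. The call of P2rx7 was lost without knockout B (adjusted p = 0.0763), without knockout C (0.0973) and with knockout A alone (0.516).

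The median log2 fold change of the members was -0.0173 with the wild types and knockout A alone, where 30 of 77 were positive, and it was 0.0135 to 0.0556 when each library was left out. With the same 4 libraries Mrpl18 was at -0.0359, Mrpl36 at -0.0730 and Mrpl58 at 0.0166, each of opposite sign to the value from all 6 libraries. When each library was left out in turn, Mrpl12 ran from -0.0420 to 0.00746, Mrps34 from -0.0244 to 0.142, Mrps18a from -0.0295 to 0.0978 and Mrps36 from -0.0417 to 0.128, crossing 0 without knockout A, knockout B, WT 2 and WT 2, in that order of genes. Of 336 values for single genes under alternatives, 325 kept their direction and side of the threshold. The cause of these shifts was not tested. No paired analysis was possible because wild types are numbered and knockouts lettered. Differences smaller than about 0.3 on the log2 scale cannot be shown for members whose intervals reach that far.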
